A study of Mus musculus with 18 samples.

Results

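To see which genes of the mouse dermis differ between early day and night, the 3 libraries collected at ZT2 were compared with the 3 collected at ZT14. Zeitgeber time (ZT) counts the hours since lights on in a cycle of 12 h of light and 12 h of dark, so ZT2 lies shortly after lights on and ZT14 shortly after lights off, when mice are active and feed. These are 6 of the 18 libraries of the study, which sampled 3 mice at each of 6 times. Each library is 1 wild-type male C57BL/6J mouse. No mouse carried a transgene or received a drug, and all were of about the same age, chosen by the study so that the skin was in telogen, the resting phase of the hair cycle. A punch of dorsal skin, scraped free of fat, was digested with collagenase, and live cells were sorted and counted by droplet sequencing. Each captured transcript is counted as a unique molecular identifier (UMI). UMIs were summed per library over the barcodes that passed the study's filter (at least 850 and at most 7800 genes, mitochondrial share under 13%) and over the fibroblasts among them. A barcode counted as a fibroblast with at least 20 UMIs of Col1a1, Col1a2 and Col3a1 together, at least 1 UMI of the fibroblast receptor Pdgfra and none of the leukocyte gene Ptprc. The 6 libraries held 6726 of the 16877 passing cells of the series and 4688 of its 12119 fibroblasts. Of these fibroblasts, 411, 467 and 1493 came from the ZT2 mice (replicates 1 to 3) and 262, 542 and 1513 from the ZT14 mice. The mouse, not the cell, is the replicate throughout.

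As background, the circadian clock is a feedback loop of transcription. The activators BMAL1 (encoded by Arntl), CLOCK and NPAS2 bind E-boxes and switch on the Per, Cry, Nr1d and Bhlhe genes, whose proteins repress the loop in turn. REV-ERB (Nr1d1, Nr1d2) and ROR proteins compete for RRE elements, through which Arntl and Nfil3 are controlled, and the PAR bZIP factors DBP, TEF and HLF act with their antagonist NFIL3 on D-boxes. In skin fibroblasts this loop runs in each cell and drives tissue-specific outputs.

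Promoter sequences are shown for 4 called clock genes, those with the largest differences in each direction among genes whose window holds an E-box, an RRE core or a D-box, so that these elements can be seen in place. Npas2, Hlf and Dbp, which differed more than some of the genes shown, had windows without these elements, and Per2 had no window. The windows come from RefSeq on GRCm38.p6 and run from 250 bases before to 50 bases after a transcription start. Both strands were searched for the E-box CACGTG, the RRE core AGGTCA and the D-boxes TTATGTAA and TTACGTAA, and matches are in capitals. For Arntl (chr7:113207261-113207560, plus strand) and Nfil3 (chr13:52980990-52981289, minus strand), both higher at ZT2, the capitals mark an RRE core. For Ciart (chr3:95882179-95882478, minus strand) and Bhlhe41 (chr6:145865371-145865670, minus strand), both higher at ZT14, they mark E-boxes, 3 in Ciart and 1 in Bhlhe41.
Arntl: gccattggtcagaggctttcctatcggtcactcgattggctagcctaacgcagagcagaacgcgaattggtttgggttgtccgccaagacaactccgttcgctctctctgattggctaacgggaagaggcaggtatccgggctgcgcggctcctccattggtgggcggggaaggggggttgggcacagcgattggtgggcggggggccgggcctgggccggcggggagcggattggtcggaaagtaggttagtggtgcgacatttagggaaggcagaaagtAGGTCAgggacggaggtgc
Nfil3: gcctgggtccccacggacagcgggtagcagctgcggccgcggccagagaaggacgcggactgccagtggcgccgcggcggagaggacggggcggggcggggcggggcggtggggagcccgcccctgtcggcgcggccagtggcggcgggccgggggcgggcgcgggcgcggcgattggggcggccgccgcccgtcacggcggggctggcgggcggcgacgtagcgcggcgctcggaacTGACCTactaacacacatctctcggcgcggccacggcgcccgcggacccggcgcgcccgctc
Ciart: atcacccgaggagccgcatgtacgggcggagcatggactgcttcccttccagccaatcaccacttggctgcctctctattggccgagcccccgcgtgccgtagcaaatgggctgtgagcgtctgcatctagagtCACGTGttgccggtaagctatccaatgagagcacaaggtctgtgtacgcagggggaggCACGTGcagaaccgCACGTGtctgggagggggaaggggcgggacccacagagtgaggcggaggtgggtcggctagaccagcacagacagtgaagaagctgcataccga
Bhlhe41: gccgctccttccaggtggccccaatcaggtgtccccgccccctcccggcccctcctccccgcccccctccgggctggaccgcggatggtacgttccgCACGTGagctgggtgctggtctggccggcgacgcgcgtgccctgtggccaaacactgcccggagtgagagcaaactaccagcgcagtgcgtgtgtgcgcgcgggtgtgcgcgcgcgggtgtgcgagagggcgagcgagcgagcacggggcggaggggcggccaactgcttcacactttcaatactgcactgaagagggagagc
Of the 4 clock genes that were higher at ZT2 in fibroblasts, 3 held an RRE core (Arntl, Clock and Nfil3) and 0 held the E-box. Of the 9 that were higher at ZT14, 8 had a window, of which 4 held the E-box (Cry1, Ciart, Bhlhe41 and Tef), 1 held an RRE core (Nr1d2) and 1 held a D-box (Per3). Over all 27025 genes with a window, 18.1% held the RRE core, 8.09% the E-box and 1.11% the D-box TTATGTAA. Among the 6 clock genes that were not called, 5 had a window, of which Per1 held both the E-box and an RRE core. The E-prime-box, which ends in T where the E-box ends in G, was also searched. It lay in 3 of these 5 (Rorb, Cry2 and Nr1d1), against 5.44% of all genes with a window. Of the called clock genes, it lay in 1 of the 8 higher at ZT14 (Cry1) and 0 of the 4 higher at ZT2. The cyclic AMP response element and the heat shock element core were searched too. Among the clock genes, Hlf alone held the first and 0 held the second. These are matches of letters, not binding sites.

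Between 15335595 and 40827442 UMIs were deposited per library, and the fibroblast sums held between 8660257 and 33503133. Summed over 8 fibroblast markers, of which 4 belong to the rule that chose the cells, the fibroblasts held 65480 to 114400 normalised counts per 1000000 (CPM). The 11 immune markers summed to at most 33.4 CPM in them, with Cd3e at 0 in all 6 libraries, as was Ptprc by the rule. Of 6719 distinct passing barcodes, 7 were found in more than 1 of the 6 libraries. ZT14 replicate 1 stood apart. Its correlation with the other two ZT14 libraries, across genes, was 0.951 over all cells and 0.974 over fibroblasts, the lowest of the 6 libraries in both, and 0.926 in immune cells, also the lowest. It had the fewest fibroblasts, at 41.9% of its passing cells, and the most immune cells, at 40.2%. Values without it are given where a named call or a count changed. The hours in the sample titles place same-numbered mice of ZT2 and ZT14 in the same cycle, but the study's own data tables number the hours differently, so this pairing is uncertain. Values with the replicate number as a block are given where a named call changes.

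In fibroblasts, 1478 of 12821 genes tested (11.5%) differed between the times at an adjusted p under 0.05 (edgeR quasi-likelihood test, two-sided, n = 3 mice per time). Higher at ZT2 were 693 genes, 5.41% of those tested, and 785 genes, 6.12%, were higher at ZT14. The differences were mostly small, with a median absolute log2 fold change of 0.63 for genes higher at ZT2 and 0.56 for genes higher at ZT14. A difference of 2-fold or more (1 on the log2 scale) was reached by 165 and 138 genes. All 3 mice of one time lay above all 3 of the other for 679 of the 693 and 755 of the 785 called genes. Over all genes tested, all ZT2 mice lay above all ZT14 mice for 1839 genes (14.3%) and below them for 1756 (13.7%). The spread in this fit comes from all 18 libraries. A fit on the 6 libraries alone called 397 of 12235 genes (3.24%), of which 386 were also called with all 18. Without ZT14 replicate 1, 1150 of 13106 genes (8.77%) were called and 903 of the 1478 kept their call and direction. Without ZT2 replicate 1, 2 or 3, the counts were 756, 738 and 948.

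**Figure D1:**
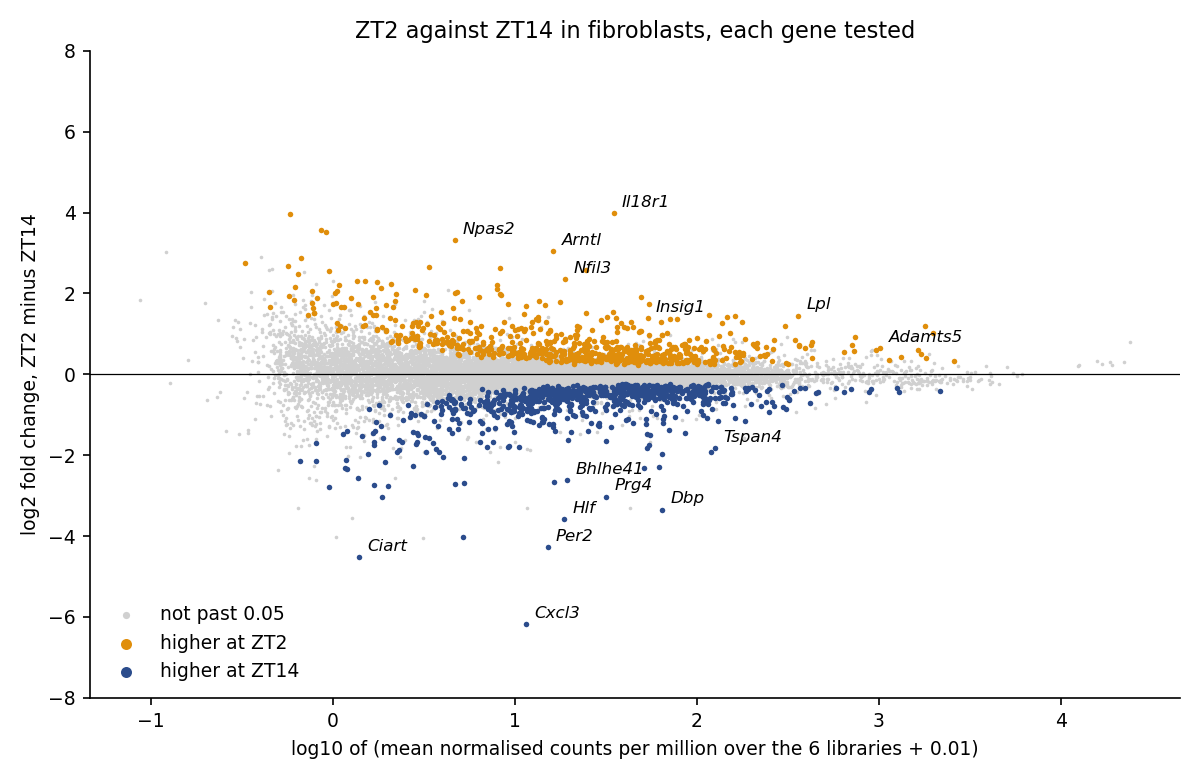
Each point is 1 of the 12821 genes tested in fibroblasts, with the log10 of its mean CPM plus 0.01 on the x axis and its log2 fold change (ZT2 minus ZT14) on the y axis. Orange points (693) were higher at ZT2 and blue points (785) were higher at ZT14 at an adjusted p under 0.05. Some clock genes, such as Per2, Ciart and Arntl, lie at the edges with Il18r1, as does Cxcl3, which was not called without ZT14 replicate 1.

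Of the 19 clock genes tested in fibroblasts, 13 differed, against 11.5% of all genes. The arms of the loop stood opposite each other. The activators Arntl, Npas2 and Clock and the D-box repressor Nfil3 were higher at ZT2. Per2, Per3, Cry1, Ciart, Bhlhe41, Nr1d2, Dbp, Tef and Hlf were higher at ZT14. Without ZT14 replicate 1 the same number, 13, was called, and 11 were called from the 6 libraries alone.

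Among the activators, Arntl (chromosome 7, 113207465 to 113314126, plus strand, GRCm38) was at 35.4, 24.1 and 27.5 CPM in the ZT2 mice and at 4.14, 2.18 and 4.02 CPM in the ZT14 mice. The groups did not overlap, and the level was 8.27-fold higher at ZT2 (log2 fold change 3.05 ± 0.27 SE, adjusted p = 5.67e-06). Npas2, which can stand in for CLOCK as the partner of BMAL1, was at 10.4, 8.39 and 6.14 CPM at ZT2 and 1.57, 0.93 and 0.40 CPM at ZT14. Its log2 fold change was the largest of the arm, at 3.31 ± 0.38 (adjusted p = 5.63e-05). Clock itself was more even. It was at 81.1, 63.9 and 66.6 CPM at ZT2 and 45.4, 50.4 and 54.1 CPM at ZT14, a difference of 1.41-fold (adjusted p = 0.00401) that was not called in the fit on the 6 libraries (adjusted p = 0.0718). Rora and Rorb, which encode activators at the RRE, overlapped between the times. Rora was at 162.7, 138.7 and 138.6 CPM at ZT2 and 133.7, 153.9 and 137.4 CPM at ZT14 (log2 fold change 0.05 ± 0.10, adjusted p = 0.82).

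Among the repressors, Per2 (chromosome 1, 91415982 to 91459324, minus strand) was low at ZT2 and high at ZT14. It was at 1.20, 1.78 and 1.50 CPM at ZT2 and at 18.4, 34.4 and 33.2 CPM at ZT14, so that the lowest ZT14 mouse lay far above the highest ZT2 mouse (19.3-fold, log2 fold change -4.27 ± 0.34, adjusted p = 1.89e-06). Per3 was at 16.5, 20.1 and 15.2 CPM at ZT2 and 70.4, 103.1 and 82.4 CPM at ZT14 (log2 fold change -2.32 ± 0.21, adjusted p = 6.52e-06). Per1, in contrast, overlapped, with 26.02, 28.2 and 19.8 CPM at ZT2 and 29.4, 20.7 and 18.2 CPM at ZT14 (adjusted p = 0.749). Ciart, a repressor of the CLOCK and BMAL1 complex, was nearly absent from fibroblasts at ZT2, with 2, 0 and 4 UMIs in the 3 libraries. At ZT14 it had 23, 48 and 50 UMIs (log2 fold change -4.51 ± 0.63, adjusted p = 0.000318). Bhlhe41 was at 4.80, 6.78 and 4.94 CPM at ZT2 and 22.9, 44.1 and 32.8 CPM at ZT14 (log2 fold change -2.62 ± 0.21, adjusted p = 1.86e-06).

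The remaining repressors differed less. Nr1d2 was 2.31-fold higher at ZT14 (34.5, 46.2 and 36.9 CPM against 93.2, 100.6 and 78.3 CPM, adjusted p = 0.000568). Its paralog Nr1d1 was not called, with 31.2, 45.1 and 32.3 CPM at ZT2 and 57.01, 49.4 and 23.8 CPM at ZT14 (adjusted p = 0.72). Cry1 was 1.79-fold higher at ZT14 and lay close to the threshold, at an adjusted p of 0.0482, or 0.0521 with the replicate number as a block. Bhlhe40 missed the threshold (23.8 to 42.4 CPM at ZT2, 45.2 to 71.3 CPM at ZT14, adjusted p = 0.0595) and passed it with the block (adjusted p = 0.0212). Cry2 overlapped between the times, at 34.6 to 42.1 and 34.7 to 46.4 CPM.

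Among the bZIP factors, Dbp was at 5.54, 20.7 and 8.70 CPM at ZT2 and 107.0, 159.7 and 83.4 CPM at ZT14 (log2 fold change -3.35 ± 0.38, adjusted p = 5.76e-05). Hlf was at 3.97, 3.73 and 1.76 CPM against 22.8, 43.5 and 35.7 CPM, a difference of 12.0-fold. Tef was 4.90-fold higher at ZT14. Nfil3, which binds the same element as a repressor, went the other way, at 25.6, 34.9 and 33.7 CPM at ZT2 and 6.04, 5.91 and 6.43 CPM at ZT14 (log2 fold change 2.35 ± 0.26, adjusted p = 4.27e-05). None of these 4 genes overlapped between the times, and each was called without ZT14 replicate 1 and in the 6 libraries alone.

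**Figure D2:**
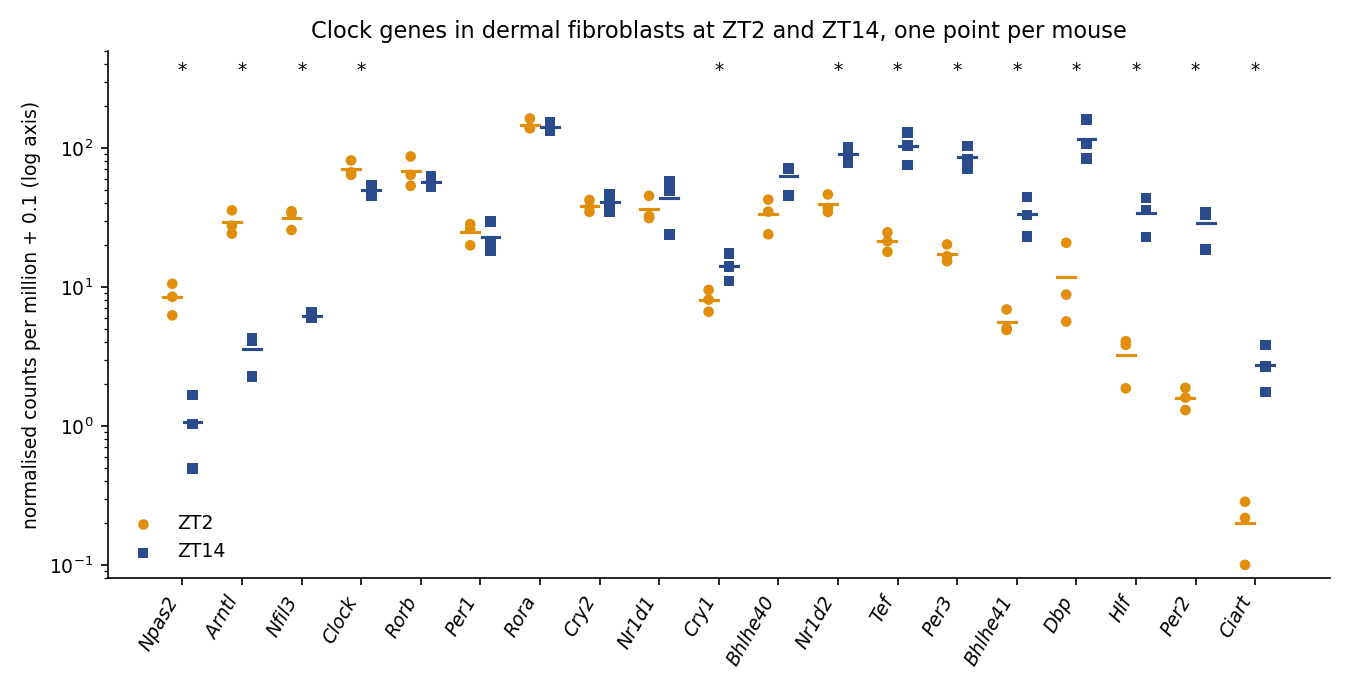
CPM plus 0.1 (log axis) of the 19 clock genes tested in fibroblasts, with 1 point per mouse (orange circles ZT2, blue squares ZT14), bars at the mean of the 3 mice and asterisks at an adjusted p under 0.05. Genes are ordered by log2 fold change, from the largest toward ZT2 (Npas2) to the largest toward ZT14 (Ciart). The 6 without an asterisk sit where the groups overlap or, for Bhlhe40, lie close together.

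Since ZT2 and ZT14 are only 2 of 6 times, the means at the others place each gene. Arntl averaged 29.0 CPM at ZT2, 4.70 at ZT6, 1.48 at ZT10, 3.45 at ZT14, 17.6 at ZT18 and 32.6 at ZT22, so ZT2 and ZT14 lay near its highest and lowest means. Per2 averaged 1.49, 7.97, 20.7, 28.7, 21.6 and 10.6 CPM over the same times, with its extremes at ZT2 and ZT14. For Nr1d1, both times fell on the flanks. It averaged 36.2 CPM at ZT2 and 43.4 CPM at ZT14, but 141.4 CPM at ZT6, 132.5 at ZT10, 2.46 at ZT18 and 3.21 at ZT22. Dbp averaged 169.0 CPM at ZT6 and 241.1 at ZT10, above its 116.7 at ZT14. Cry1 was highest at ZT22, at 28.0 CPM, and lowest at ZT6, at 2.23 CPM. Over the called genes, ZT2 held the highest of the 6 means for 458 of the 693 genes higher at ZT2, and ZT14 the highest for 662 of the 785 genes higher at ZT14. The choice of the genes by these times favours such counts.

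Outside the clock, the gene list with the largest share called was that of sterol synthesis and its control. Of its 16 genes, 14 were higher at ZT2 and 0 at ZT14, against 5.41% of all genes higher at ZT2, with a median log2 fold change of 1.13 against -0.001 over all genes. The 14 include early and late steps of the pathway, and for each of them all ZT2 mice lay above all ZT14 mice. Without ZT14 replicate 1, 13 were called, 10 without ZT2 replicate 1, 11 in the 6 libraries alone and 9 after thinning each cell to 5000 UMIs. The genes of this list beyond the naming rule are described because of these values.

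Srebf2, which encodes the transcription factor that switches on the pathway when sterols are low, was at 67.4, 54.4 and 62.5 CPM at ZT2 and 28.6, 26.4 and 26.9 CPM at ZT14 (2.25-fold, log2 fold change 1.17 ± 0.13, adjusted p = 4.27e-05). Insig1, which retains the SREBP precursors in the endoplasmic reticulum and is itself a target of them, was at 109.7, 56.3 and 67.0 CPM against 32.0, 29.5 and 27.1 CPM (adjusted p = 0.000751). In both genes the 3 ZT14 mice lay close together and the ZT2 mice were spread. In the upper pathway, Mvk, Idi1 and Fdps, enzymes of isoprenoid synthesis, were 1.45-, 3.30- and 2.13-fold higher at ZT2. Fdft1, which makes squalene, was 3.52-fold higher. Sqle, which makes its epoxide, was at 13.8, 7.97 and 8.58 CPM at ZT2 and 2.80, 1.09 and 3.69 CPM at ZT14, the largest difference of the list (3.78-fold, log2 fold change 1.92 ± 0.38, adjusted p = 0.00424). In the later steps, Lss, Cyp51, Msmo1, Nsdhl, Sc5d and Dhcr7 were between 1.65-fold (Dhcr7, adjusted p = 0.0419, not called without ZT14 replicate 1) and 2.60-fold (Cyp51, adjusted p = 0.00332) higher. Stard4, which moves cholesterol between membranes, was at 21.1, 13.6 and 17.9 CPM at ZT2 and 6.15, 3.58 and 6.36 CPM at ZT14 (3.23-fold, adjusted p = 0.000378).

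Of the 16 genes, 2 were not called. Hmgcs1 was at 83.5, 38.2 and 53.2 CPM against 41.3, 28.1 and 33.5 CPM (adjusted p = 0.0895). Mvd was under 5 CPM in each of the 6 libraries. The highest level of 13 of the 14 called genes was in ZT2 replicate 1. Summed over the 16 genes, the ZT2 mice held 515.6, 328.4 and 396.1 CPM and the ZT14 mice 201.9, 170.9 and 204.4 CPM. The 12 libraries of the other times held 208.5 to 391.8 CPM, a range that holds the value of ZT2 replicate 2. The mean of each of the 14 called genes was highest at ZT2 of all 6 times. This was so for 66.1% of all genes called higher at ZT2, and the choice of genes by that time favours it. Srebf1, which encodes the SREBP of fatty acid synthesis, was 1.39-fold higher at ZT2 (adjusted p = 0.0375) and not called without ZT14 replicate 1 (adjusted p = 0.0543).

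**Figure D3:**
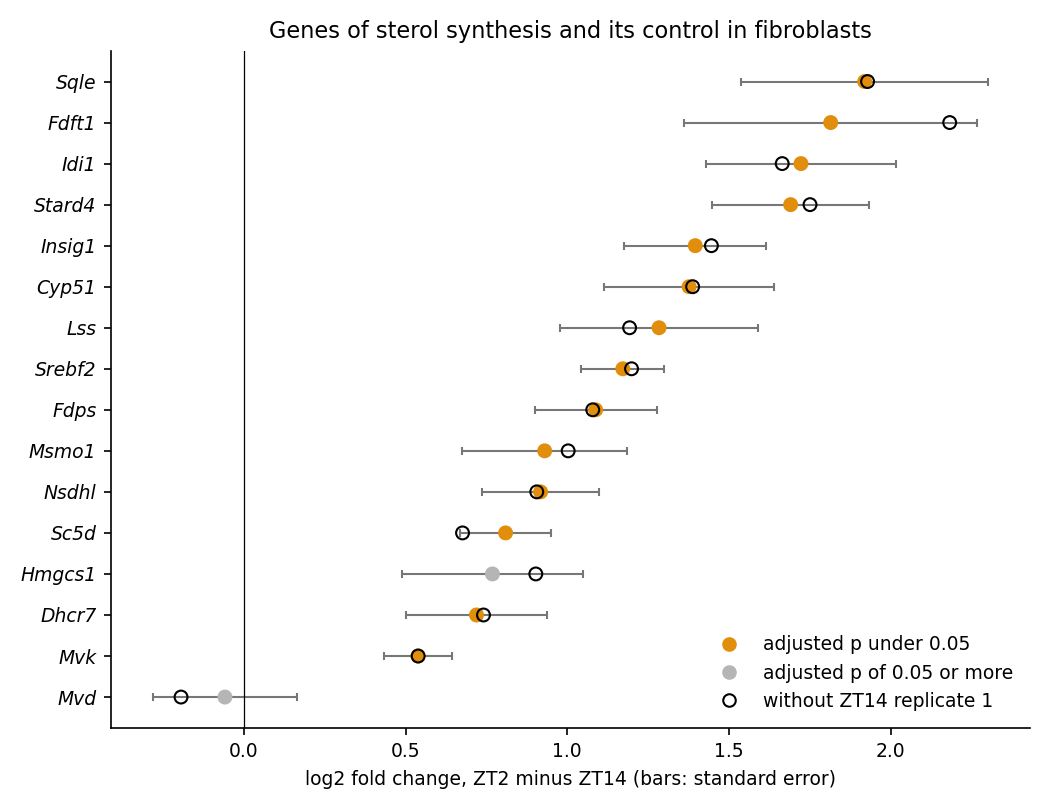
Log2 fold changes (ZT2 minus ZT14) of the 16 sterol genes in fibroblasts, with bars for the standard error, filled orange where the adjusted p was under 0.05 and grey otherwise, and open circles for the fit without ZT14 replicate 1. Of the 16, 15 lie to the right of 0, led by Sqle at 1.92, and only Mvd lies at the left, at -0.06.

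Among the genes with at least 10 CPM, the largest difference toward ZT2 was in Il18r1 (chromosome 1, 40465552 to 40500854, plus strand), which encodes a chain of the interleukin-18 receptor. It was at 70.3, 67.8 and 58.5 CPM in the ZT2 mice and 3.24, 5.13 and 3.96 CPM in the ZT14 mice, a wide gap with little spread on either side (15.8-fold, log2 fold change 3.98 ± 0.31, adjusted p = 1.86e-06). Its means at the times between were ordered, with 42.5 CPM at ZT6, 17.6 at ZT10, 19.6 at ZT18 and 44.3 at ZT22. Of the 10 genes of the interleukin-1 family that were tested, 3 were higher at ZT2 and 0 at ZT14, against 5.41% of all genes higher at ZT2. The others were Il1r2, the decoy receptor, at 1071 to 1265 CPM against 696.5 to 847.3 CPM, and Il1rap, the shared co-receptor, 1.42-fold higher. Il1rap was not called without ZT14 replicate 1 (adjusted p = 0.0567).

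The other genes at the top of this direction were Pde3a, a phosphodiesterase that degrades cyclic AMP, Alkal2, a ligand of the receptor ALK, Adamts16, a secreted metalloproteinase, Hpgd, which inactivates prostaglandins, and Klhl13, an adaptor of ubiquitin ligases. Pde3a was at 53.2, 39.3 and 33.4 CPM at ZT2 and 7.83, 6.68 and 6.69 CPM at ZT14 (5.95-fold, adjusted p = 4.08e-05). Hpgd was at 77.8, 84.8 and 68.3 CPM against 31.9, 18.3 and 13.1 CPM (3.76-fold). Alkal2, Adamts16 and Klhl13 were 3.54-, 3.46- and 3.33-fold higher. All 5, which the rule for naming took from genes without overlap, kept their call without ZT14 replicate 1 and in the 6 libraries alone. Lpl, the lipoprotein lipase that releases fatty acids from circulating lipid, was at 653.1, 468.4 and 462.4 CPM at ZT2 and 143.1, 244.0 and 192.9 CPM at ZT14 (2.73-fold, adjusted p = 0.000202). It was 1 of 2 genes called among 14 of lipid uptake and breakdown, with Acadm (1.28-fold), against 11.5% of all genes. Of the 14, 4 were called without ZT14 replicate 1. In the list of fatty acid and triglyceride synthesis, Dgat2, which makes triglycerides, was lower at ZT2, at 0.68 to 1.29 CPM against 2.60 to 4.58 CPM (adjusted p = 0.000775). Igfbp3, which binds insulin-like growth factors, was 2.30-fold higher at ZT2 (364.4 to 522.4 CPM against 145.4 to 214.1 CPM).

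Genes of the extracellular matrix differed in both directions. Called were 3 of 18 collagen chains, 5 of 23 genes of collagen processing and secretion and 2 of 12 genes of matrix turnover, against 11.5% of all genes. Of the collagen chains, Col5a3 was higher at ZT2 (305.5, 208.1 and 237.1 CPM against 114.9, 101.1 and 89.6 CPM, adjusted p = 0.00271), and Col12a1 and Col8a1 were higher at ZT14. Col12a1 was at 29.1, 35.7 and 50.6 CPM at ZT2 and 104.3, 128.1 and 71.3 CPM at ZT14 (2.60-fold, adjusted p = 0.0247). Of the genes of collagen processing and secretion, 4 were higher at ZT2, among them Loxl2, which crosslinks collagen (1.63-fold), Creb3l1, which encodes a transcription factor of collagen secretion (1.82-fold), and the coat protein gene Sec23a (1.31-fold). The count higher at ZT2 was 2 without ZT2 replicate 1 or 3 or without ZT14 replicate 3, and without ZT14 replicate 3 the count higher at ZT14 was 3. P4ha3, a prolyl hydroxylase subunit, was higher at ZT14, at a level under 5 CPM. Sec23a (adjusted p = 0.0654) and P4ha3 (adjusted p = 0.0635) were not called without ZT14 replicate 1. Of the genes of matrix turnover, the aggrecanase gene Adamts5 (1199, 1246 and 1284 CPM against 861.6, 763.4 and 761.1 CPM) and the membrane-bound metalloproteinase gene Mmp14 (1.69-fold) were higher at ZT2. Ogn, a small proteoglycan, was 1.33-fold higher and was not called without ZT14 replicate 1 (adjusted p = 0.101).

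Of 22 immediate early genes, 7 were higher at ZT2, against 5.41% of all genes, and 0 at ZT14. These genes are also induced when tissue is dissociated. Ier2 was at 395.8, 520.4 and 520.3 CPM at ZT2 and 289.5, 318.8 and 306.3 CPM at ZT14 (1.57-fold, adjusted p = 0.00149), Btg2 was 1.94-fold and Klf4 was 1.35-fold higher. Jun, Ier5, Fosl2 and Fosb made up the rest. The count varied with the samples and the tool, with 3 called without ZT14 replicate 1, without ZT2 replicate 1 or in the 6 libraries alone, 2 without ZT14 replicate 2, 4 without ZT2 replicate 2 and 11 by DESeq2. The fold changes moved less. When ZT14 replicate 1 was left out, the log2 fold change went from 0.65 to 0.61 for Ier2 and from 0.96 to 0.90 for Btg2, both still called, and from 0.44 to 0.36 for Klf4 (adjusted p = 0.0817). Cirbp, the cold-inducible RNA-binding protein, was at 47.2, 62.5 and 54.3 CPM at ZT2 and 26.1, 24.2 and 22.9 CPM at ZT14 (2.25-fold, adjusted p = 0.000343). Its means were 47.0 CPM at ZT6, 59.98 at ZT10, 42.8 at ZT18 and 37.7 at ZT22. ZT14 was therefore the lowest of the 6 times. The 14 heat-inducible chaperones held 3 genes that were higher at ZT14, against 6.12% of all genes. Of these, Hspd1, the mitochondrial chaperonin, was at 84.8 to 89.3 CPM at ZT2 and 196.6, 99.4 and 136.3 CPM at ZT14. Of these 14, 2 were called without ZT14 replicate 1, and 1 without ZT2 replicate 1, ZT2 replicate 3 or ZT14 replicate 3. In the 6 libraries alone, 0 were called.

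Among the genes higher at ZT14, Tspan4, which encodes a tetraspanin, was at 63.6, 52.3 and 50.2 CPM at ZT2 and 185.0, 224.7 and 174.8 CPM at ZT14 (3.52-fold, log2 fold change -1.82 ± 0.16, adjusted p = 6.52e-06). It averaged 110.5 CPM at ZT6, 179.5 at ZT10, 118.1 at ZT18 and 68.1 at ZT22, between the levels of ZT2 and ZT14. Fmo2, a flavin-containing monooxygenase, was at 38.9, 44.0 and 66.3 CPM against 156.2, 235.8 and 176.6 CPM (3.78-fold, adjusted p = 0.000264). Por, which passes electrons to cytochromes P450, was 1.73-fold higher at ZT14. In the list of clock-controlled genes, 3 of 12 were higher at ZT14 (Tspan4, Por and Wee1) and 2 at ZT2 (Leo1, 2.09-fold, and Pdk4, which restrains pyruvate oxidation, 2.45-fold). Over all genes, 6.12% were higher at ZT14 and 5.41% at ZT2. Tspan4 was put in that list with earlier results of these data known.

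Of 22 cell cycle genes, 4 were higher at ZT14, against 6.12% of all genes. The count was 2 without ZT14 replicate 1 or 3 and without ZT2 replicate 1 or 2. The log2 fold changes of the 22 genes were positive for 11 and negative for 11, with a median of -0.05. Wee1, a kinase that holds back mitosis and a known clock output, was at 9.60, 10.8 and 7.20 CPM at ZT2 and 28.8, 24.9 and 18.2 CPM at ZT14 (2.62-fold, adjusted p = 0.000622). Ccnd1, which encodes cyclin D1, was at 48.2, 34.6 and 54.4 CPM against 132.0, 136.9 and 111.8 CPM (2.76-fold, adjusted p = 0.00293). The replication genes Mcm2 and Mcm4 were the others. Mcm2 was under 7 CPM in each library and lost its call with the replicate number as a block (adjusted p = 0.0578) and without ZT14 replicate 1 (adjusted p = 0.0529), as did Mcm4 (adjusted p = 0.0511 and 0.0533). Phlda3, a target of p53, was at 7.20 to 11.4 CPM at ZT2 and 22.2 to 33.6 CPM at ZT14.

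Genes of glycolysis and of the chaperonin ring were also among those higher at ZT14. Of 15 glycolysis genes, Ldha, Gpi1, Pgk1 and Pkm were called, all in this direction, against 6.12% of all genes higher at ZT14. Ldha, lactate dehydrogenase A, was at 80.4, 81.7 and 94.5 CPM at ZT2 and 206.5, 133.4 and 130.8 CPM at ZT14 (1.83-fold, adjusted p = 0.000931), with ZT14 replicate 1 the highest. Of the 15, 3 were called without ZT14 replicate 1, 2 without ZT2 replicate 1 or 2 and 1 in the 6 libraries alone. Skeletal muscle, which lies under the dermis, is rich in these enzymes. The 10 muscle markers, none of them at 0, summed in the fibroblasts to 27.9, 112.5 and 4.94 CPM at ZT2 and 73.0, 185.3 and 17.4 CPM at ZT14. Their part in the result was not tested. Of the 8 subunits of the chaperonin ring, which folds actin and tubulin, 6 were higher at ZT14, against 6.12% of all genes. Cct6a was at 69.9, 72.4 and 78.1 CPM against 145.5, 87.5 and 106.2 CPM, and Cct3 and Cct4 were 1.60- and 1.25-fold higher. The count varied with the libraries. It was 1 of the 8 without ZT14 replicate 1, 1 without ZT2 replicate 1, 3 without ZT2 replicate 2 and 4 without ZT2 replicate 3. It was 8 without ZT14 replicate 2 and 5 with the replicate number as a block. In the 6 libraries alone, 0 were called and 6 had an unadjusted p under 0.05, against 2593 of all 12235 genes in that fit. Of 19 genes of the endoplasmic reticulum chaperones, Herpud1 (1.86-fold, adjusted p = 0.00176) and Dnajb9 (1.33-fold) were higher at ZT14, and 5 were called without ZT14 replicate 1. Of 77 nuclear-encoded subunits of oxidative phosphorylation, 2 were higher at ZT14 (Cox5a and Uqcrq) and 1 at ZT2 (Ndufv3), fewer than the 11.5% called among all genes. Of these 3, only Cox5a was called without ZT14 replicate 1.

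A few large differences toward ZT14 were not called without ZT14 replicate 1. The chemokine gene Cxcl3 had the largest log2 fold change, -6.19 ± 1.78, with 0, 0 and 0.53 CPM at ZT2 and 61.6, 3.96 and 2.70 CPM at ZT14 (adjusted p = 0.034). Prg4, which encodes the lubricating proteoglycan of joints, was at 4.71, 2.03 and 11.8 CPM against 144.6, 12.9 and 14.7 CPM. Slco2a1, a prostaglandin transporter, was at 19.7 to 32.3 CPM at ZT2 and 234.2, 41.4 and 34.3 CPM at ZT14, and Col8a1 was at 1.70 to 6.32 CPM against 52.1, 27.3 and 6.46 CPM. Without that library the log2 fold change was -3.51 for Cxcl3, -1.04 for Prg4 (-3.02 with it), -0.53 for Slco2a1 (-1.96 with it) and -1.91 for Col8a1 (-2.67 with it), with adjusted p-values from 0.125 to 0.293. Prg4 was also lost with the replicate number as a block (adjusted p = 0.0537). Over the 785 genes called higher at ZT14, ZT14 replicate 1 was the highest of the 6 libraries for 459, replicate 2 for 181 and replicate 3 for 145. Of the 785, 310 (39.5%) were not called without replicate 1, and neither were 265 (38.2%) of the 693 genes higher at ZT2. Other libraries mattered as well. Of all 1478 called genes, 903 kept their call without ZT14 replicate 1, 1017 without ZT14 replicate 2 and 936 without ZT14 replicate 3. Without ZT2 replicate 1, 2 or 3, 710, 722 and 893 kept it.

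The lists that follow held 0, 1 or 2 called genes each, against 11.5% called over all genes. In lists this small, 1 or 2 calls do not set a list below that share. Of 20 interferon response genes, 12 complement genes and 81 ribosomal protein genes, 0 were called by edgeR or by DESeq2. At an unadjusted p under 0.05 were 0, 0 and 8 in edgeR and 0, 1 and 12 in DESeq2. Over all 12821 genes tested, 3318 in edgeR and 3101 in DESeq2 were under it. The ribosomal protein genes leaned toward ZT14, with negative log2 fold changes for 76 and positive for 5. Their median was -0.153 against -0.001 over all genes. All ZT14 mice lay above all ZT2 mice for 9 of the 81, against 13.7% of all genes. In the list of chemokines and cytokines, which does not hold Cxcl3, 1 of 19 genes was called, Lif (1.54-fold higher at ZT2, adjusted p = 0.0733 without ZT14 replicate 1). Of the 8 fibroblast markers, Dpt was 1.27-fold higher at ZT2 (adjusted p = 0.0975 without ZT14 replicate 1) and the others were not called. In the glucocorticoid list 1 of 15 genes was called (Pdk4, and 3 without ZT14 replicate 1), in the TGF-beta list 1 of 14 (Tgfb1, 1.56-fold higher at ZT14), in the NRF2 list 1 of 16 (Gsr, higher at ZT14, adjusted p = 0.0907 without that library), in the Wnt list 1 of 13 (Wnt9a, 1.96-fold higher at ZT14) and in the NAD list 1 of 12 (Nadk, higher at ZT14). Of 13 genes of DNA damage and growth arrest, Txnip (adjusted p = 0.0541 without that library) and Sesn1 were higher at ZT2. Of the 13 mitochondrially encoded genes, mt-Cytb was higher at ZT14.

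**Figure D4:**
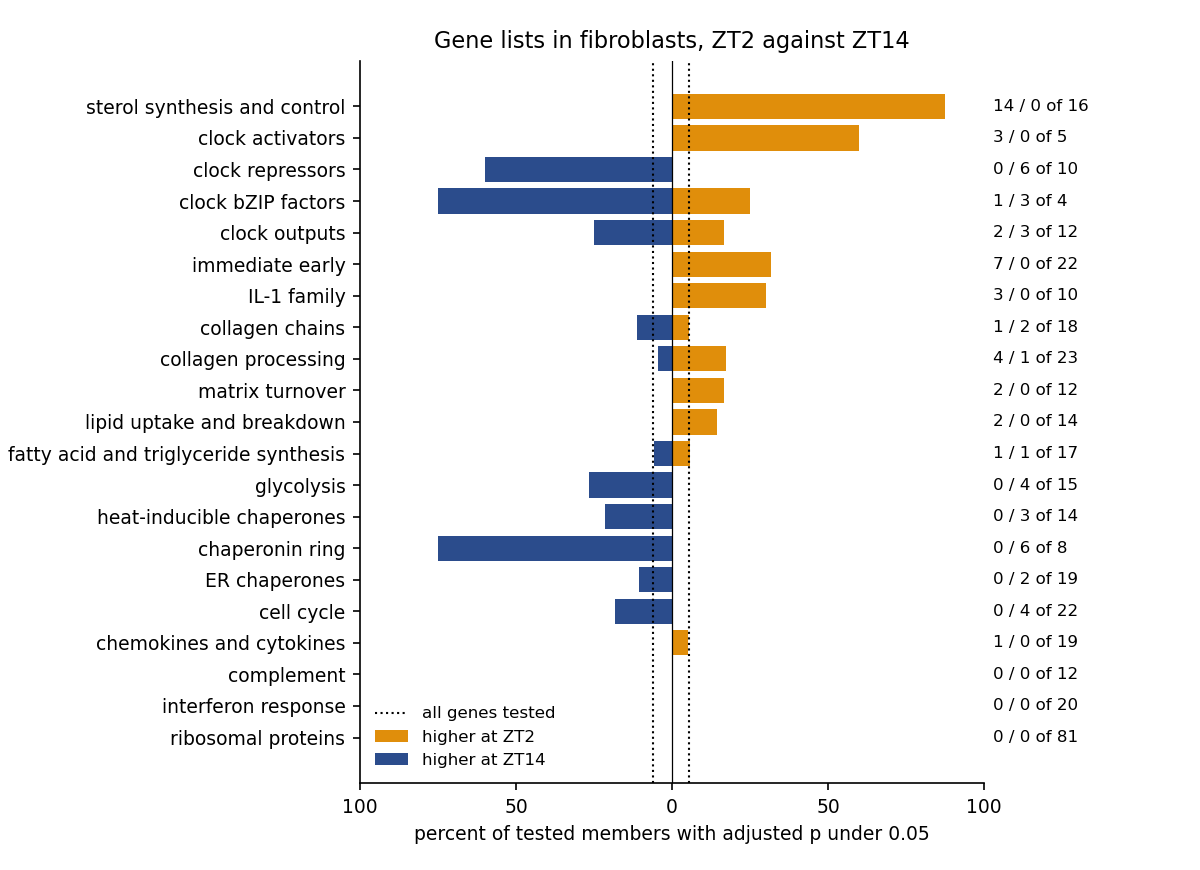
Percent of tested members of 21 gene lists called in fibroblasts at an adjusted p under 0.05, to the right (orange) for genes higher at ZT2 and to the left (blue) for genes higher at ZT14, with the numbers (ZT2 / ZT14 of tested) at the right edge. Dotted lines mark the share over all genes tested, 5.41% and 6.12%. The sterol list reaches 14 of 16 on the ZT2 side and the chaperonin ring 6 of 8 on the ZT14 side.

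Summed over all passing cells, fewer genes passed the test. In these sums, fewer cells of a type and less RNA per cell cannot be told apart. Of 14438 genes, 598 (4.14%) were called, with 290 (2.01%) higher at ZT2 and 308 (2.13%) higher at ZT14. Of the 598, 549 were called in fibroblasts in the same direction, which is 91.8% of these and 37.1% of the fibroblast calls. The clock gene Per2 was at 1.40, 1.62 and 1.67 CPM against 14.6, 30.3 and 33.1 CPM, and Arntl at 33.7, 24.8 and 26.6 CPM against 6.86, 2.13 and 4.28 CPM. In all, 10 of 19 clock genes and 11 of 16 sterol genes were called. These counts were 10 and 7 without ZT14 replicate 1, and in the 6 libraries alone 1 and 0. In the fit on the 6 libraries, 14 of the 16 sterol genes had an unadjusted p under 0.05, against 1901 of all 13732 genes. Among the genes with at least 10 CPM, Il18r1 (11.1-fold), Arntl (6.45-fold) and Pde3a (5.94-fold) had the largest differences toward ZT2. In this sum only 6 genes were called from the 6 libraries alone, 206 without ZT2 replicate 1, 227 without ZT2 replicate 2 and 355 without ZT2 replicate 3. The interferon-induced gene Ifitm1 and the lipolysis inhibitor G0s2 were high in ZT14 replicate 1. Ifitm1 was at 126.8, 24.5 and 16.2 CPM at ZT14 and 5.24 to 8.29 CPM at ZT2, and was not called without that library (adjusted p = 0.193) or with the replicate number as a block (adjusted p = 0.0712). G0s2 was at 181.3, 39.4 and 30.1 CPM at ZT14 and 13.5 to 18.5 CPM at ZT2, and stayed called without that library (adjusted p = 0.00688). In immune cells at ZT14, G0s2 was at 634.8, 145.5 and 0.75 CPM and Ifitm1 at 432.3, 41.8 and 9.81 CPM, and neither was called. In fibroblasts, G0s2 overlapped between the times (adjusted p = 0.0831, or 0.0327 without ZT14 replicate 1). Ifitm1 did not overlap there, at 3.60, 4.66 and 6.67 CPM at ZT2 and 19.7, 23.2 and 14.6 CPM at ZT14. Its log2 fold change in fibroblasts was -1.87 ± 0.65 (adjusted p = 0.0728) and -1.84 without ZT14 replicate 1 (adjusted p = 0.113). It was called in the 6 libraries alone (adjusted p = 0.0114) and with the replicate number as a block (adjusted p = 0.0487). Muscle markers in this sum ranged from 42.5 to 4810 CPM at ZT2 and from 757 to 14780 CPM at ZT14.

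In immune cells the comparison found little. These were barcodes with at least 1 UMI of Ptprc, at least 5 of Cd52, Tyrobp, Coro1a and Laptm5 together, no Pdgfra and fewer than 20 collagen UMIs, and numbered 719 at ZT2 and 653 at ZT14. Of 10313 genes tested, 1 was called (0.0097%), with 635 at an unadjusted p under 0.05, while DESeq2 called 13. This gene was Per2, at 3.42, 1.25 and 2.10 CPM at ZT2 and 10.1, 22.6 and 23.4 CPM at ZT14 (log2 fold change -3.07 ± 0.46, adjusted p = 0.0415). It was not called with the replicate number as a block (adjusted p = 0.101). Of the 17 clock genes tested here, 2 were higher in all ZT2 mice than in all ZT14 mice and 8 lower, against 5.33% and 4.23% of all genes tested in immune cells, and of these only Per2 passed the test. Arntl was at 34.2, 26.3 and 19.1 CPM at ZT2 and 14.1, 2.88 and 4.15 CPM at ZT14 (adjusted p = 0.335), with ZT14 replicate 1 the highest of its group. Dbp was at 7.32, 9.38 and 8.39 CPM against 23.4, 122.9 and 43.4 CPM (adjusted p = 0.106), and here the same library was the lowest. Without ZT14 replicate 1, 5 genes were called, and Per2, Arntl, Dbp, Per3 and Tef all had adjusted p-values under 0.05 (0.00449 to 0.019). Depth was lower than in fibroblasts, with 1972843 to 5207680 UMIs per library.

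Whether the time difference itself differed between fibroblasts and immune cells was tested within libraries, and 14 of 13065 genes (0.107%) passed. Among the clock genes only Ciart did. In immune cells it had 28, 71 and 150 UMIs at ZT2 and 60, 63 and 73 at ZT14, or 13.7, 22.2 and 28.6 CPM against 15.9, 30.3 and 27.5 CPM, which overlap. In fibroblasts it was near 0 at ZT2. The fold changes differed by -4.37 ± 0.68 on the log2 scale (adjusted p = 0.0085). For Nfil3 and Hlf the difference between the cell classes missed the threshold (2.31 ± 0.48, adjusted p = 0.0603, and -4.00 ± 0.85, adjusted p = 0.0761). For Per2 (-1.15 ± 0.47, adjusted p = 0.573), Arntl (1.09 ± 0.39, adjusted p = 0.489) and Dbp (-0.77 ± 0.45, adjusted p = 0.773) no difference was shown between the classes, with standard errors that leave room for one. Il18r1 was at 17.6, 1.25 and 12.4 CPM at ZT2 and 5.57, 21.1 and 10.6 CPM at ZT14 in immune cells, and its fold changes differed by 4.25 ± 0.67 between the classes (adjusted p = 0.00895).

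**Figure D5:**
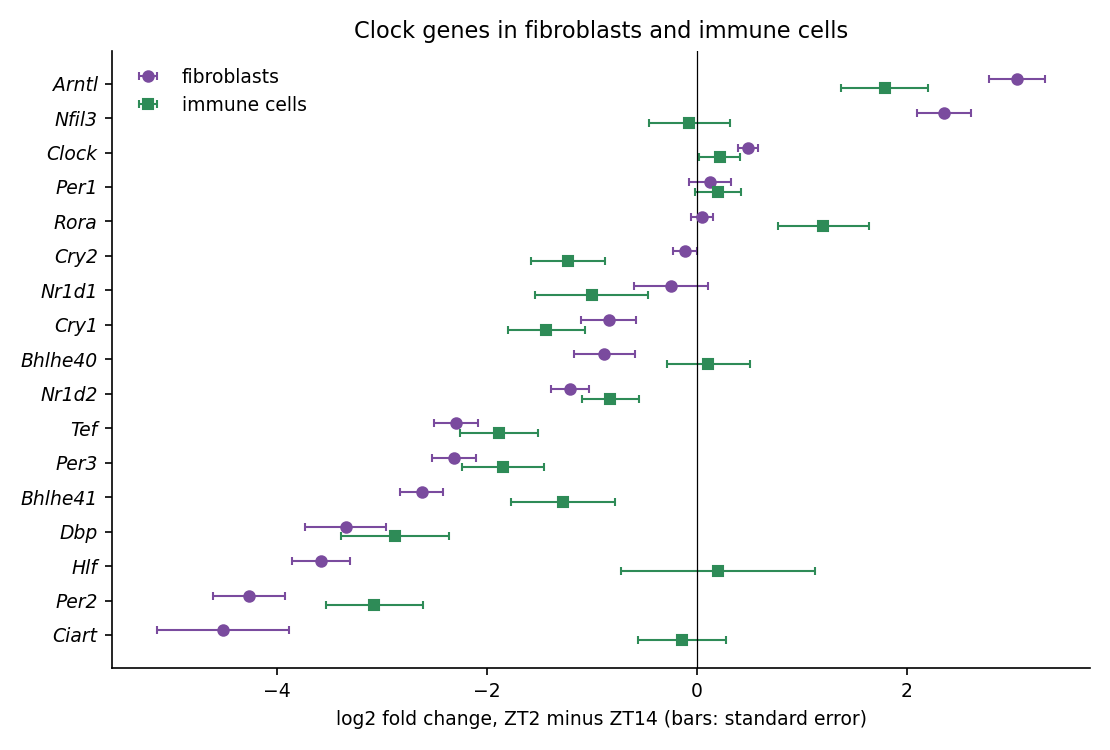
Log2 fold changes (ZT2 minus ZT14) of the 17 clock genes tested in both cell classes, with bars for the standard error (purple circles fibroblasts, green squares immune cells). Per2 lies at -4.27 and -3.07, while Ciart lies at -4.51 in fibroblasts and -0.14 in immune cells.

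The make-up of the libraries did not differ detectably between the times. Fibroblasts made up 68.6% ± 5.4 of the passing cells at ZT2 and 61.3% ± 19.1 at ZT14 (mean ± SD, n = 3, exact permutation test, two-sided, p = 0.7). Immune cells made up 22.6% ± 3.6 and 23.7% ± 14.5 (exact permutation test, p = 1.0). Cells of neither class made up 8.799% ± 4.9 at ZT2 and 15.02% ± 7.09 at ZT14 (exact permutation test, p = 0.2). With 3 mice against 3 this exact test cannot go below p = 0.1, so a difference in make-up could be missed. The ZT14 means without replicate 1 were 71.0% ± 12.9 for fibroblasts, 15.4% ± 3.5 for immune cells and 13.6% ± 9.4 for neither (n = 2).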

How the data were processed

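Live-sorted dermal cells were sequenced with the 10x Genomics 3' v3 kit, and each of 18 mice gave 1 library. The deposited values are UMI counts that the authors made with Cell Ranger 3.1.0 on mm10, without normalization, and their filter on cells had not been applied to the files. It was applied here. Doublets were not removed. Counts were summed per library over all passing cells, fibroblasts and immune cells, and normalised by TMM to counts per 1000000. The 6 group means of the 18 libraries were fitted with edgeR 4.0.16 in R 4.3.3 (quasi-likelihood test, filterByExpr, Benjamini-Hochberg adjustment over all genes tested, 12 residual degrees of freedom), and the contrast of ZT2 with ZT14 was taken. The difference between cell classes was fitted with the library as a block. DESeq2 1.42.0, other filters and left-out libraries were alternatives.

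Tested on simulated data, the fibroblast fit recovered 78 of 100 genes changed 2-fold and 94 of 100 changed 4-fold with 7 false calls, the all-cell fit 57 and 80 of 100 with 9, and the immune fit 24 and 83 of 100 with 12. Intervals and p-values cover the spread between mice.

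The hours in the sample titles place same-numbered ZT2 and ZT14 mice in the same cycle, a pairing left uncertain by other hours in the study's tables. Deviations of same-numbered fibroblast sums correlated across genes at 0.02, 0.03 and 0.08.

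Members and lists were chosen with earlier results of these data known. Some genes of the clock and sterol lists are not reported here, and the counts of these lists leave them out. Genes named were the 10 largest differences per direction among called genes without overlap and with at least 10 CPM (5 in immune cells), every clock gene, up to 3 called genes per list and direction and 5 genes of the cell class difference. The remaining sterol genes and other genes named without values were chosen after their values were seen. Gene positions come from the GENCODE annotation of GRCm38. Promoter windows matched 76.7% of the genes tested, so no share of motifs over called genes was computed.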

Additional observations from a re-analysis of the deposited data

Results flagged for a closer look

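For 5 genes, the difference between ZT2 and ZT14 itself differed between fibroblasts and immune cells, by a test within libraries (edgeR). Agap1, a regulator of membrane traffic, was at 57.8 to 68.7 CPM at ZT2 and 16.99 to 29.5 CPM at ZT14 in fibroblasts, and at 10.3 to 11.2 CPM and 18.8 to 23.1 CPM in immune cells. Its fold changes thus had opposite signs and differed by 2.29 on the log2 scale (adjusted p = 0.000163), and this was the only gene called from the 6 libraries alone. Slc6a6, the taurine transporter, was 3.51-fold higher at ZT14 in fibroblasts and at 214.3 to 279.8 and 216.9 to 244.4 CPM in immune cells, a difference of -1.85 (adjusted p = 0.00405). Ciart differed by -4.37 and Il18r1 by 4.25, with the values given above. Dhrs9, a retinol dehydrogenase, differed by 2.76 (adjusted p = 0.0152). Its immune level was 1.46 to 2.19 CPM at ZT2 and 27.3, 2.40 and 7.54 CPM at ZT14, so the highest value is that of ZT14 replicate 1. The 9 other called genes were Orai1, Evi2a, Lonrf1, Fam117a, Mrln, Ank, Zdhhc14, Ttc7 and Ubtd1, named after their values were seen.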

How the results depend on the processing

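No called gene that was called again under another setting changed direction, in fibroblasts or in all cells. The numbers of genes called moved with the samples, the tool and the depth. In fibroblasts (1478 genes), 397 were called from the 6 libraries alone, 849 from these without ZT14 replicate 1 (chosen after seeing the data), 596 after thinning to the lowest total, 560 after thinning each cell to 5000 UMIs and 738 to 1213 with 1 library left out. In all cells (598 genes), the counts were 6, 113, 346 after thinning, 388 with no filter on low counts, 1090 by DESeq2 and 206 to 747 with 1 library left out. In immune cells (1 gene), 0 were called from the 6 libraries with or without ZT14 replicate 1 (461 and 504 at an unadjusted p under 0.05), 13 by DESeq2, 128 with no filter and 0 to 8 with 1 library left out. For the difference between cell classes (14 genes), 1 was called from the 6 libraries, 34 by DESeq2, 9 with RLE normalization, 219 with no filter, 3 after thinning and 4 to 19 with 1 library left out. Some settings hold fewer samples or UMIs, and the cause of these shifts was not tested.

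With the replicate block, 1543 genes were called in fibroblasts, 615 in all cells, 0 in immune cells (584 at an unadjusted p under 0.05) and 13 for the difference. Without ZT14 replicate 1, the difference in the share of fibroblasts (ZT2 minus ZT14) went from 7.32 to -2.36 percentage points and that of immune cells from -1.10 to 7.14. With that library kept, the difference for immune cells as a share of all barcodes was 0.0153. Genes at a few CPM in the smaller immune sums are measured with a larger counting error, and a difference missed there is not shown to be absent.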

Other observations

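Marker sums of fibroblast subsets were also read in the fibroblasts of each library, as a description. Krtdap, Dmkn and Sbsn together were at 478.9, 935.9 and 736.4 CPM at ZT2 and 1760, 1047 and 874.2 CPM at ZT14, where ZT14 replicate 1 was the highest. Cilp, Thbs4 and Fmod together were at 113.6, 27.5 and 82.04 CPM and 243.8, 171.8 and 72.4 CPM, and the same library was again the highest. Sult1e1, Igfbp3 and Inmt together were at 680.2, 1014 and 819.8 CPM and 324.3, 578.9 and 796.4 CPM, and that library was the lowest. Pi16, Sema3e, Cd248 and Dpp4, markers of progenitor-like fibroblasts, lay at 7492 to 7884 CPM at ZT2 and at 5747, 8565 and 7926 CPM at ZT14. Of these genes, Igfbp3 (higher at ZT2) and Sema3e (1.49-fold higher at ZT14, adjusted p = 0.0204) were called. Red blood cell markers in the same cells ranged from 130.1 to 1881 CPM at ZT2 and from 144.3 to 1105 CPM at ZT14. The part of these markers in the differences between ZT2 and ZT14 was not tested.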
